A study of Mus musculus with 8 samples.

Results

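Embryoid bodies in which doxycycline induced Oct6 were compared at day 6 with induced embryoid bodies at day 4. The genes were chosen by level alone: every gene with an FPKM (fragments normalised to transcript length and to library size) of 1 or more in either library entered, which gave 12864 of the 22558 genes in the table. Each day was 1 library, so the differences carry no test and no replicate error. Values just inside that filter were 1 FPKM at day 6 against 0.0682 FPKM at day 4 for Wnt10b, and just outside it Ttll7 had 0.999 FPKM at day 6 and 0.996 FPKM at day 4.

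The series examined what Oct6 does as mouse embryonic stem cells (lines R1 and R1/E, kept on feeder cells) differentiate towards neural cells. The groups used here were induced Oct6 at days 6, 4 and 2 and the control at days 6, 4 and 2, with 1 RNA library each, and at day 4 an Oct6 ChIP library with its input from cells that the labels describe as overexpressing Oct6. The time label of the ChIP and input names neural differentiation, whereas that of the RNA libraries names embryoid bodies, so the peaks may come from another culture format. The labels do not say which line a library came from, whether control cells carry the transgene or received doxycycline, or whether the arms share a line. Titles of these libraries begin with fbs, which is not explained, while the growth protocol names serum-free differentiation.

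Oct6, encoded by Pou3f1, is a class III POU transcription factor that binds octamer-type DNA elements and is expressed in the epiblast and in early neural tissue. Embryoid bodies are aggregates of stem cells that leave pluripotency and form cells of several germ layers side by side. As they do so, genes of the epiblast and of the primitive streak are switched off, and genes of mesoderm, blood, endoderm and ectoderm derivatives are switched on, with Nodal, BMP, Wnt and FGF signals setting the proportions. All values are from whole aggregates, in which fewer cells of a type and less RNA per cell cannot be told apart.

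Depth was estimated from the FPKM that 1 fragment gives in genes with 1 annotated transcript. It came to about 23500000 fragments for induced day 6 and 26200000 for induced day 4, and to 26400000 for control day 6 and 52100000 for control day 4. In a transcript of 2 kb, 1 FPKM then rests on about 47 fragments at induced day 6 and 52.4 at induced day 4, so values near 0.02 FPKM stand for about 1 fragment. The libraries differed little in scale for most genes: the median difference in log2(FPKM + 1), day 6 minus day 4, was 0.04, with quartiles of -0.17 and 0.24. The 122 genes averaging 500 FPKM or more had a median difference of -0.24, and 11 of them were above 0; in control the same genes had a median of -0.33.

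A gene was called higher or lower when log2(FPKM + 1) differed by at least 1, which is 2-fold on the FPKM + 1 scale. At day 6, 383 genes (2.98%) were higher than at day 4 and 270 (2.1%) were lower. Of these, 56 were higher and 33 lower by at least 2 on the log2 scale, and 11 were higher and 5 lower by at least 3. The higher genes had a median of 6.12 FPKM at induced day 6 and 1.23 FPKM at induced day 4, and 177 of them (46.2%) lay below 1 FPKM at day 4. The lower genes had a median of 2.95 FPKM at induced day 6 and 9.26 FPKM at induced day 4, and 72 of them (26.7%) lay below 1 FPKM at day 6. Small RNA, predicted, pseudogene and clone symbols made up 62 of the higher and 74 of the lower genes, and they are not named below except where they bear on another gene. Just inside the line were Vgll4, with 16.8 FPKM at day 6 and 7.88 FPKM at day 4, and Steap3, with 0.648 FPKM at day 6 and 2.3 FPKM at day 4. Just outside it were Cotl1, with 78.6 FPKM at day 6 and 38.8 FPKM at day 4, and Dusp6, with 42.6 FPKM at day 6 and 86.1 FPKM at day 4.

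**Figure D1:**
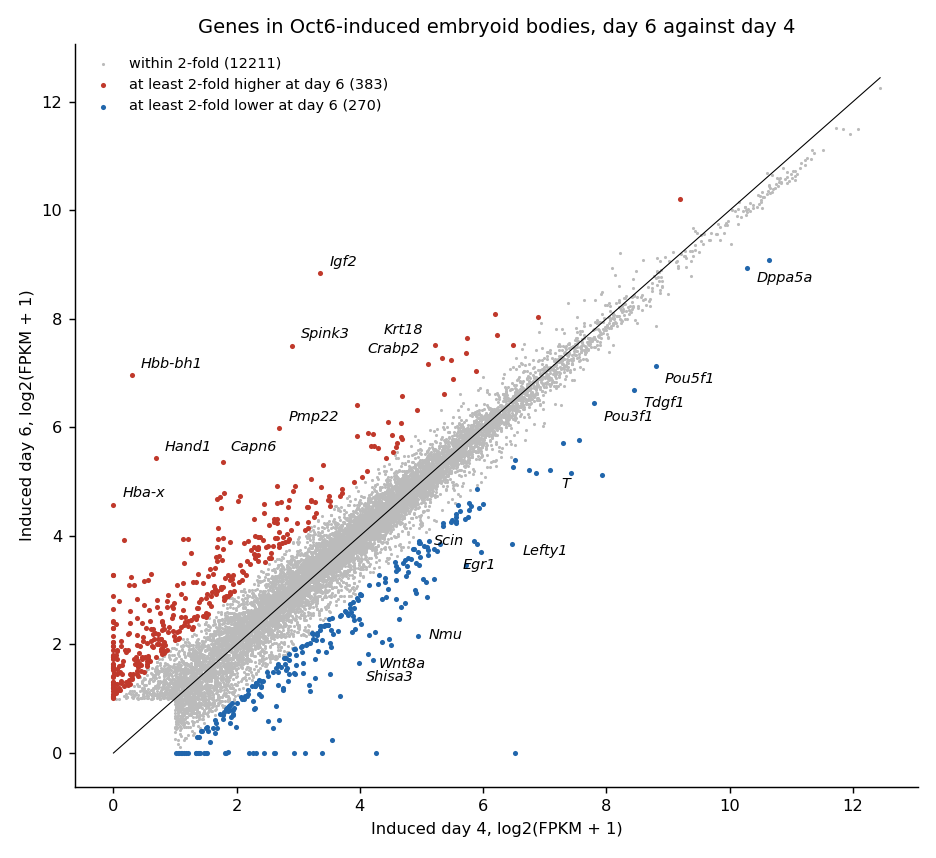
Each point is 1 of 12864 genes, with log2(FPKM + 1) at induced day 4 on the x axis and at induced day 6 on the y axis, 1 library each; the line marks equal levels. Red points (383) are at least 2-fold higher at day 6 and blue points (270) at least 2-fold lower; Hbb-bh1, Igf2 and Hand1 lie farthest above the line among the labelled genes.

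Pou3f1 (mm9, chromosome 4, 124334896 to 124337899, plus strand) was read first because it checks the labels. Its level was 312 FPKM at induced day 2, 222 FPKM at induced day 4 and 86.8 FPKM at induced day 6. In control it was 64.3 FPKM at day 2, 10.1 FPKM at day 4 and 4.76 FPKM at day 6. Each induced library was above the control library of its day, and the day 6 level was the lowest of the induced arm: Pou3f1 fell by 1.35 on the log2 scale in induced cells, against a difference of -0.95 in control. Transgene and endogenous Pou3f1 transcripts cannot be told apart in these values. Among the other class III POU genes, Pou3f4 had 5.0 FPKM at induced day 6 and 2.86 FPKM at induced day 4, Pou3f3 had 5.84 FPKM at day 6 and 3.80 FPKM at day 4, and Pou3f2 stayed below 1 FPKM in both libraries. None of these reached 2-fold.

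Genes of primitive blood were among the largest increases. Hbb-bh1, the embryonic beta-like globin of primitive red cells, had 124 FPKM at induced day 6 and 0.232 FPKM at induced day 4, a difference of 6.67 on the log2 scale, the largest of the genes named here. The embryonic alpha-like globin Hba-x had 22.9 FPKM at induced day 6 and was listed at 0 at day 4, and Hbb-y, a further embryonic beta-like globin, had 3.91 FPKM at day 6 and was also listed at 0 at day 4. Of 11 expressed members of the globin and erythroid list, 8 rose and 0 fell, with a median difference of 1.64, and of 1.52 over all 12 listed. In this list 10 members passed the filter through day 6 alone, and a gene that passes in that way with a low day 4 level had to differ, so the counts and medians of the lists describe them and support nothing further. Others that rose were Gata1, the main erythroid transcription factor, with 3.66 FPKM at day 6 and 0.193 FPKM at day 4, the adult globin Hba-a1, Nfe2 and the blood stem cell factor Runx1. Globin genes are near-identical copies in part, so reads may be shared between copies, and the way such reads were assigned is not stated in the sources.

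The same blood genes were far higher in control embryoid bodies. Control day 6 had 962 FPKM of Hbb-bh1, 403 FPKM of Hba-x and 160 FPKM of Hbb-y. At control day 4 these were 0.121 FPKM for Hbb-bh1 and listed at 0 for the other two. Summed over the 12 listed genes, FPKM was 171 at induced day 6 and 4.75 at induced day 4, and 1581 at control day 6 and 5.56 at control day 4. Levels were thus low in both day 4 libraries, and the arms stood apart at day 6.

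The start regions of Hba-x and Hbb-y are shown as examples of embryonic globin genes that rose, and GATA elements, which the Gata1 product is known to bind, are marked. Both come from RefSeq (build GRCm38.p6) and run from 250 bases before to 50 bases after the annotated start, on the strand of the gene. Hba-x lies on the plus strand (chr11:32276350-32276649) and Hbb-y on the minus strand (chr7:103853158-103853457). Capitals mark AGATAA or TGATAA on either strand.
Hba-x: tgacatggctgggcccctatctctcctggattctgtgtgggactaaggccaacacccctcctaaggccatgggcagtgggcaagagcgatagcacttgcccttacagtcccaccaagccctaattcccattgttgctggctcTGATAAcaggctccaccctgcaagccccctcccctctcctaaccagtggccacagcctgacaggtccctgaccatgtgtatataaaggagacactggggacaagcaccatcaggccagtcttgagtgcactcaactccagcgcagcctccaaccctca
Hbb-y: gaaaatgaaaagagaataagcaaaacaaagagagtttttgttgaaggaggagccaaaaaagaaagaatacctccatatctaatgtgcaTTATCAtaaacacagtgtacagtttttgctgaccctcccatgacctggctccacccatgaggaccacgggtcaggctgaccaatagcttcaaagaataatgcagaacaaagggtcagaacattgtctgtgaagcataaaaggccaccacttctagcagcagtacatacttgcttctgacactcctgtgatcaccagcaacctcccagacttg
One such match begins 108 bases before the start of Hba-x, and another 162 bases before the start of Hbb-y. These letters occurred in 18.6% of all 32851 mouse promoters in the table, in 16.1% of the 298 promoters of higher genes with an entry, in 15.8% of the 209 promoters of lower genes and in 9.59% of the 12868 promoters of all expressed genes. A match is a description of the sequence and not a bound site.

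Of the cardiac and lateral mesoderm factors, 7 of 8 expressed members of the list were higher at day 6 and 0 were lower, with a median difference of 2.09. Over all 14 listed genes the median was 0.73, and 4 of the 8 passed the filter through day 6 alone. Hand1, a bHLH factor of extra-embryonic and cardiac mesoderm, had 42.4 FPKM at induced day 6 and 0.608 FPKM at induced day 4. Its partner Hand2 had 7.61 FPKM at day 6 and 0.257 FPKM at day 4, and Foxf1a, a forkhead factor of splanchnic mesoderm, had 7.53 FPKM at day 6 and 0.193 FPKM at day 4. Tbx20, Gata4, Isl1 and Smarcd3 also rose, while the remaining expressed member, Gata6, had 9.19 FPKM at day 6 and 7.87 FPKM at day 4. Nkx2-5, Mef2c, Tbx5, Gata5, Osr1 and Wt1 were under 1 FPKM in both induced libraries. At control day 6 Nkx2-5 had 4.14 FPKM and Mef2c 5.82 FPKM, and both were under 1 FPKM at control day 4.

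Sarcomere genes were higher at day 6 in 6 of 9 expressed members, with 0 lower and a median difference of 1.39, against 0.77 over all 14 listed; 6 of the 9 passed the filter through day 6 alone. Tnnc1, cardiac and slow troponin C, had 24.7 FPKM at induced day 6 and 2.20 FPKM at induced day 4, and Tnni1, slow troponin I, had 8.52 FPKM at day 6 and 0.214 FPKM at day 4. In control Tnnc1 had 40.3 FPKM at day 6 and 5.17 FPKM at day 4. Some cardiac genes stayed at small levels after induction. Tnnt2, cardiac troponin T, had 2.09 FPKM at induced day 6 and 0.102 FPKM at day 4, against 43.8 FPKM at control day 6 and 0.132 FPKM at control day 4. Actc1, cardiac actin, had 1.41 FPKM at induced day 6 and 0.963 FPKM at day 4, against 41.6 FPKM at control day 6 and 3.99 FPKM at control day 4. Acta2, the smooth muscle and early cardiac actin, had 25.2 FPKM at induced day 6 and 2.33 FPKM at day 4. It was the 1 gene of 6 in the smooth muscle list that rose.

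Endothelial and hemangioblast genes were higher in 9 of 15 expressed members, with 0 lower and a median difference of 1.07, and 9 of the 15 passed the filter through day 6 alone. Tal1, the factor of blood and endothelial specification, had 5.16 FPKM at induced day 6 and 0.211 FPKM at day 4. Kdr, the VEGF receptor that marks early vascular mesoderm, had 5.44 FPKM at day 6 and 0.834 FPKM at day 4, and Lmo2 had 12.3 FPKM at day 6 and 3.69 FPKM at day 4. The endothelial junction gene Cdh5 and the receptor gene Tie1 were at 1.51 and 1.76 FPKM at day 6 and below 0.1 FPKM at day 4. Vegfa, the ligand of Kdr, had 32.0 FPKM at day 6 and 8.19 FPKM at day 4. Etv2, which acts above these genes in vascular mesoderm, had 2.81 FPKM at day 6 and 2.74 FPKM at day 4.

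Pluripotency genes fell. In the general list 7 of 12 were lower and 0 higher, with a median difference of -1.17, and in the naive list 6 of 16 were lower and 1 was higher, with a median of -0.88. Pou5f1, which encodes Oct4, had 138 FPKM at induced day 6 and 445 FPKM at day 4, Nanog had 34.7 FPKM at day 6 and 115 FPKM at day 4, and Zfp42 (Rex1) had 37.8 FPKM at day 6 and 88.1 FPKM at day 4. Sox2, which is also a neural progenitor factor, had 37.8 FPKM at day 6 and 65.9 FPKM at day 4 and did not reach 2-fold. The naive member that rose was Tbx3, which also marks early mesoderm and endoderm, with 13 FPKM at day 6 and 4.72 FPKM at day 4. Pou5f1 and Nanog have pseudogene copies whose reads may be shared.

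All 16 naive genes had a higher level in induced than in control embryoid bodies at day 6, as did 9 of the 12 in the general list. This was not particular to pluripotency genes: it held for 25 of 26 neuron and 27 of 29 Hox and Cdx genes. It held for 0 of 14 cardiac and 0 of 12 erythroid genes. The share over all expressed genes is not given here. Dppa5a had 492 FPKM at induced day 6 and 1247 FPKM at induced day 4, against 131 FPKM at control day 6 and 427 FPKM at control day 4. Summed over the 16 naive genes, FPKM was 624 at induced day 6 and 1482 at induced day 4, and 185 at control day 6 and 501 at control day 4, with Dppa5a the main part of each induced sum. Over the 12 general genes it was 760 at induced day 6 and 1587 at induced day 4, and 790 at control day 6 and 1880 at control day 4. Pou5f1 itself was at nearly the same level in the arms at day 6, with 138 FPKM in induced and 136 FPKM in control cells. Germ cell genes showed 3 lower and 0 higher of 11 (median -0.47), among them Mael, Ddx4 and Dnd1, and the primed epiblast list 2 lower and 0 higher of 11 (median -0.11).

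Nodal pathway genes had the lowest median of the 41 lists, -1.32, with 7 of 10 expressed members lower and 0 higher. The ligand Nodal had 12.5 FPKM at induced day 6 and 28.5 FPKM at day 4, and its co-receptor Tdgf1 (Cripto) had 102 FPKM at day 6 and 349 FPKM at day 4. Secreted inhibitors of the pathway fell too: Lefty1 had 13.4 FPKM at day 6 and 87.7 FPKM at day 4, Lefty2 had 14 FPKM at day 6 and 33.9 FPKM at day 4, and Cer1 had 19.4 FPKM at day 6 and 53.1 FPKM at day 4. The ligand Gdf3 and the target Gsc completed the 7. In control embryoid bodies 7 of 11 were lower, with a median of -1.74.

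Of the primitive streak and early mesoderm list 4 of 14 fell and 2 rose, with a median of -0.05. T (brachyury), the factor of streak and axial mesoderm, had 36.1 FPKM at induced day 6 and 135 FPKM at day 4. Mixl1, Gsc and Fgf8 also fell, and the 2 that rose were Kdr and Pdgfra, receptors of the mesoderm that leaves the streak. Eomes had 27.9 FPKM at day 6 and 54.5 FPKM at day 4, within 2-fold. In control 9 of 14 fell and 1 rose, with a median of -1.54. Streak genes thus fell in fewer members after induction. Wnt3 had 7.89 FPKM at induced day 6 and 7.03 FPKM at induced day 4, against 4.46 FPKM at control day 6 and 14 FPKM at control day 4. Summed over the 15 listed genes, FPKM was 206 at induced day 6 and 380 at induced day 4, and 222 at control day 6 and 674 at control day 4. The sums were thus close at day 6 and control was higher at day 4. At day 6, 5 of the 15 were above control. The difference between the arms was not tested.

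BMP pathway genes rose in 9 of 16 members and fell in 1, with a median of 1.16. Among ligands Bmp4 had 23 FPKM at induced day 6 and 4.43 FPKM at day 4, and Bmp2 had 6.59 FPKM at day 6 and 1.15 FPKM at day 4. The targets Msx2 and Msx1, homeobox genes, had 26.8 and 49.4 FPKM at day 6 and 2.49 and 17.1 FPKM at day 4, and Id1 had 131 FPKM at day 6 and 58.2 FPKM at day 4. The antagonist Nog and the feedback inhibitors Smad6 and Bambi rose, while Grem1, an antagonist, had 0.290 FPKM at day 6 and 2.14 FPKM at day 4. In control 6 of 15 rose and 0 fell (median 0.97).

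Other signals moved in part. Of 19 Wnt targets and inhibitors 4 rose and 2 fell (median 0.25): Wnt5a had 12.9 FPKM at day 6 and 2.21 FPKM at day 4, whereas Wnt8a had 3.10 FPKM at day 6 and 19.5 FPKM at day 4. The general Wnt target Axin2 had 14.5 FPKM at day 6 and 13.6 FPKM at day 4. Of 16 FGF genes 3 rose and 2 fell, with a median of -0.71: Fgf3 had 14.4 FPKM at day 6 and 1.19 FPKM at day 4, and Fgf15 and Fgfr3 rose, while Fgf8 and Fgf17 fell. The ERK feedback genes Spry4 and Dusp6 lay just short of 2-fold. Immediate early genes had 3 lower and 0 higher of 13 (median -0.28), led by Egr1 with 13.4 FPKM at day 6 and 58.6 FPKM at day 4. Hedgehog genes had 4 of 11 higher (median 0.74), including the targets Gli1 and Ptch1, and Notch genes had 3 of 14 higher (median 0.58), namely the effectors Hes5, Hey1 and Hey2.

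**Figure D2:**
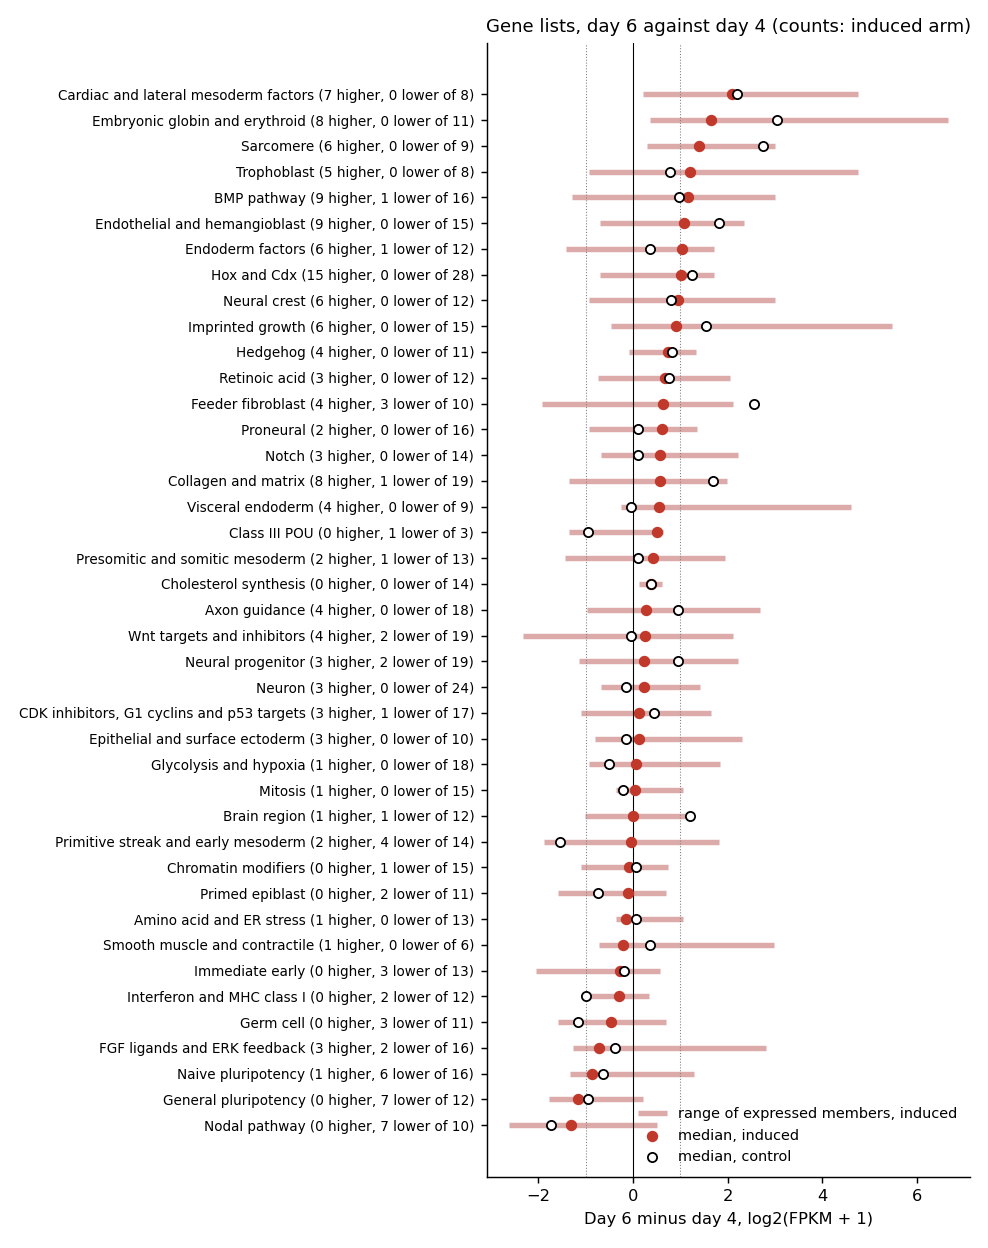
Day 6 minus day 4 in log2(FPKM + 1) for 41 gene lists: red points are medians over expressed members in induced embryoid bodies, pale bars the range of those members, and open points medians in control, with 1 library per day and arm. The cardiac and lateral mesoderm (2.09) and erythroid (1.64) lists have the highest induced medians over expressed members and the Nodal list (-1.32) the lowest. The filter shapes this order, since 4 of 8 cardiac and 10 of 11 erythroid members passed it through day 6 alone. Over all listed genes the medians are 0.73 for the cardiac, 1.52 for the erythroid and 1.16 for the BMP list. The control median of the erythroid list (3.04) lies above the induced one (1.64).

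Neural progenitor genes had a median difference of 0.24, with 3 of 19 expressed members higher and 2 lower. In control 7 of 17 expressed members were higher and 2 lower, with a median of 0.96, above the induced one. Hes5, a Notch effector of neural stem cells, had 5.59 FPKM at induced day 6 and 0.411 FPKM at day 4. Fabp7, the radial glial lipid binding protein, had 58.2 FPKM at induced day 6 and 16.6 FPKM at day 4, against 2.31 FPKM at control day 6 and 2.03 FPKM at control day 4. The third was Vim, with 182 FPKM at day 6 and 89.0 FPKM at day 4, which lies just under 2-fold when the libraries are scaled by median ratios (0.99). Sox21 and Nkx6-1 fell, to 4.05 and 2.11 FPKM at day 6 against 9.64 and 5.92 FPKM at day 4. The definitive neural marker Sox1 had 2.31 FPKM at day 6 and 2.61 FPKM at day 4, and Pax6 had 4.69 FPKM at day 6 and 3.30 FPKM at day 4. Both were called higher in control. Sox1 had 1.64 FPKM at control day 6 and 0.0307 FPKM at control day 4, and Pax6 had 1.9 and 0.138 FPKM.

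Proneural genes had 2 of 16 higher and 0 lower, with a median of 0.61. Nhlh2, a bHLH factor of early neurons, was among those that rose, with 3.0 FPKM at induced day 6 and 0.630 FPKM at day 4. In control it had 0.0402 FPKM at day 6 and 0.00701 FPKM at day 4. Neurog1, Neurog2, Neurod4, Nhlh1 and Myt1 were between 1.12 and 3.55 FPKM at induced day 6 and between 0.223 and 1.49 FPKM at induced day 4, short of the 2-fold line. Ebf1, Ebf3 and Insm1 lay below their day 4 levels, also within 2-fold.

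Neuron genes had 3 of 24 higher and 0 lower, with a median of 0.23. Dcx, the microtubule protein of migrating neurons, had 8.68 FPKM at induced day 6 and 3.43 FPKM at day 4, against 0.132 FPKM at control day 6 and 0.0494 FPKM at control day 4. L1cam, an axonal adhesion molecule, and Isl1, which is shared with cardiac progenitors, also rose. Tubb3, neuronal tubulin, had 56.2 FPKM at day 6 and 28.6 FPKM at day 4 (difference 0.95), and Stmn2 had 48.5 FPKM at day 6 and 78.0 FPKM at day 4 (difference -0.67). The list was thus spread around its day 4 levels. Brain region genes had 1 higher and 1 lower of 12 with a median of 0.01, a sign that turned under both other scalings of the libraries. The forebrain and midbrain factor Otx2 had 30.5 FPKM at day 6 and 31.0 FPKM at day 4.

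Neural crest genes had 6 of 12 higher, 0 lower and a median of 0.94. Beside Msx1 and Msx2 these were Snai2, Ets1, Pax3 and Tcfap2b. Snai2, a repressor of epithelial genes, had 4.26 FPKM at induced day 6 and 0.384 FPKM at day 4, and Pax3 had 6.32 FPKM at day 6 and 2.45 FPKM at day 4. Sox10, the defining factor of migrating crest, was at 0.170 FPKM at day 6 and 0.247 FPKM at day 4, and Foxd3 had 0.824 FPKM at day 6 and 2.49 FPKM at day 4. Several of the genes that rose are also expressed in mesoderm or the dorsal neural tube.

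Hox and Cdx genes were higher in 15 of 28 expressed members and lower in 0, with a median of 1.02, against 1.01 over all 29 listed. Of the 28, 16 passed the filter through day 6 alone, so the counts here and by cluster only describe the list. In control 11 of 14 expressed members were higher and 0 lower, with a median of 1.24. Hox genes are set in clusters and give cells their position along the body axis, with higher numbers used farther back. All 5 listed genes of the D cluster rose, as did 4 of 5 of the C cluster, 3 of 9 of the B cluster and 2 of 6 of the A cluster. Summed FPKM of the B cluster was 63.8 at induced day 6 and 31.1 at induced day 4, against 17.8 at control day 6 and 2.5 at control day 4. For the C cluster the sums were 11.4 FPKM at induced day 6 and 1.31 FPKM at induced day 4, against 5.01 FPKM at control day 6 and 0.782 FPKM at control day 4. The B cluster was thus already expressed at induced day 4, and the C and D clusters came from lower levels. Hoxb9 had 3.85 FPKM at induced day 6 and 0.520 FPKM at day 4, and Hoxc6 had 2.72 FPKM at day 6 and 0.141 FPKM at day 4. Cdx2, which acts above the Hox genes, had 14.5 FPKM at day 6 and 5.12 FPKM at day 4.

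**Figure D3:**
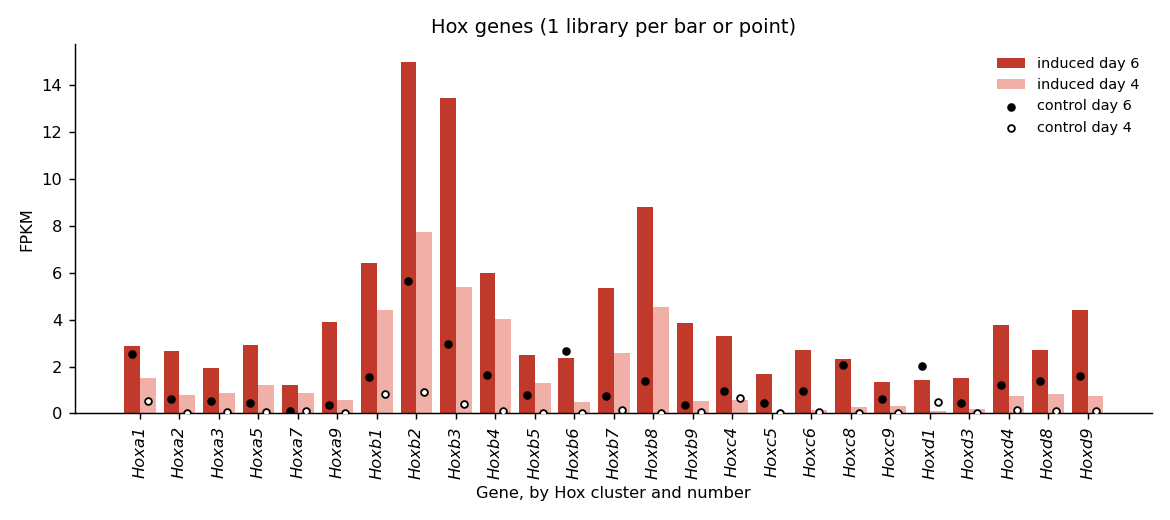
FPKM of the 25 listed Hox genes, by cluster: dark bars are induced day 6, pale bars induced day 4, filled points control day 6 and open points control day 4, 1 library each. Hoxb2 (15 FPKM) and Hoxb3 (13.5 FPKM) have the highest bars at induced day 6.

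Retinoic acid genes, whose signal controls Hox expression, had 3 of 12 higher and 0 lower (median 0.68). In control 4 of 12 were higher and 0 lower (median 0.765). Crabp2, a retinoic acid binding protein, had 143 FPKM at induced day 6 and 33.6 FPKM at day 4, against 35.9 FPKM at control day 6 and 18.6 FPKM at control day 4. Cyp26a1, which degrades retinoic acid, had 48.3 FPKM at day 6 and 18.6 FPKM at day 4, and the receptor gene Rarb, itself a target, also rose. The synthesising enzyme gene Aldh1a2 had 2.76 FPKM at day 6 and 1.03 FPKM at day 4, within 2-fold on the FPKM + 1 scale.

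Endoderm factors were higher in 6 of 12 and lower in 1, with a median of 1.03. Foxa1, a forkhead factor of gut endoderm, had 8.79 FPKM at induced day 6 and 2.07 FPKM at day 4, Cxcr4 had 57.2 FPKM at day 6 and 21.9 FPKM at day 4, and Gata4, Hhex and Foxa3 rose as well. Foxa2 had 12.1 FPKM at day 6 and 16.1 FPKM at day 4, and Sox17 had 16.6 FPKM at day 6 and 9.04 FPKM at day 4. In control 2 of 12 rose and 1 fell (median 0.36), from day 4 levels that were higher than induced ones for Gata4 and Hhex.

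Visceral endoderm genes had 4 of 9 expressed members higher and 0 lower (median 0.54, and 0.33 over all 15 listed). Spink3, a trypsin inhibitor, had 181 FPKM at induced day 6 and 6.48 FPKM at day 4, against 240 FPKM at control day 6 and 56.7 FPKM at control day 4. Ttr, Cited1 and Hnf4a rose from low levels. Afp, alpha-fetoprotein, stayed at 0.115 FPKM at induced day 6 and 0.0347 FPKM at day 4, against 53.3 FPKM at control day 6 and 3.64 FPKM at control day 4, and Apoa1 and Apob were also under 1 FPKM in both induced libraries. Of the 15 listed genes 6 were under 1 FPKM in both induced libraries, among them these defining secretory genes. Apoe, which is made by many cell types, had 263 FPKM at day 6 and 262 FPKM at day 4.

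Keratins of simple epithelia rose: Krt18 had 183 FPKM at induced day 6 and 36.1 FPKM at day 4, Krt8 had 199 FPKM at day 6 and 52.2 FPKM at day 4, and Krt19 had 18.8 FPKM at day 6 and 3.85 FPKM at day 4. They were the 3 members that rose of 10 in the epithelial and surface ectoderm list (median 0.12). Cdh1, E-cadherin, had 57.9 FPKM at day 6 and 53.7 FPKM at day 4, and the epidermal genes Krt5, Krt14 and Trp63 were under 0.2 FPKM in both induced libraries. In control Krt18 had 279 FPKM at day 6 and 166 FPKM at day 4, and so was already high at day 4. Of the trophoblast list 5 of 8 rose (median 1.21, and 0.62 over all 12 listed), Hand1 and Cdx2 among them, but the placental genes Prl3d1, Tpbpa and Gcm1 were near or at 0.

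Imprinted growth genes had 6 of 15 higher and 0 lower (median 0.90). Igf2, the fetal insulin-like growth factor, had 457 FPKM at induced day 6 and 9.26 FPKM at day 4, against 1182 FPKM at control day 6 and 33.4 FPKM at control day 4. Its antisense partner Igf2as had 8.17 FPKM at day 6 and 0.478 FPKM at day 4, and without strand the reads of the pair cannot be told apart. Peg10, Peg3, Phlda2, Dlk1 and the CDK inhibitor gene Cdkn1c also rose, the last with 79.1 FPKM at day 6 and 29.3 FPKM at day 4. H19, which neighbours Igf2, had 1.03 FPKM at day 6 and 0.886 FPKM at day 4.

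Collagen and matrix genes had 8 of 19 higher and 1 lower (median 0.56). The basement membrane collagens Col4a1 and Col4a2 had 29.2 and 14.7 FPKM at induced day 6 and 6.74 and 4.09 FPKM at day 4. Col1a1 had 7.90 FPKM at day 6 and 1.46 FPKM at day 4, whereas Col1a2, whose product joins that of Col1a1 in type I collagen, had 11.2 FPKM at day 6 and 30.4 FPKM at day 4. The stem cells had been kept on feeders, and of the 12 listed fibroblast markers 10 were expressed, with 4 higher and 3 lower. Their summed FPKM was 47 at induced day 6 and 49.7 at induced day 4, and 124 at control day 6 and 11 at control day 4. Dcn was under 1 FPKM in both induced libraries, and Fap was listed at 0 at day 6 and had 0.0337 FPKM at day 4. What feeder cells contributed was not tested.

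The remaining lists had few calls or medians nearer to 0. Of 15 mitosis genes 1 rose, Mki67, with 25.6 FPKM at day 6 and 11.8 FPKM at day 4, and the median was 0.04. Of 17 CDK inhibitors, G1 cyclins and p53 targets 3 rose and 1 fell (median 0.13). The cholesterol list had 0 of 14 in either direction, though all 14 lay slightly above their day 4 levels (median 0.37). Glycolysis and hypoxia genes had 1 higher of 18, Vegfa, with a median of 0.07. The interferon and MHC class I list had 2 lower of 12, Irf1 and Psmb8 (median -0.31), the stress list 1 higher of 13 (median -0.14) and the chromatin list 1 lower of 15, Dnmt3l, with 6.24 FPKM at day 6 and 14.5 FPKM at day 4. Presomitic and somitic genes had 2 higher and 1 lower of 13 (median 0.43), and axon guidance genes 4 higher and 0 lower of 18 (median 0.28), among them the semaphorin and VEGF co-receptor gene Nrp1 with 25.6 FPKM at day 6 and 3.15 FPKM at day 4.

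Further genes among the 15 largest increases belonged to no list. Capn6, a calpain-like protein, had 40.3 FPKM at induced day 6 and 2.44 FPKM at day 4. Pmp22, a membrane protein of myelin that is also made in mesenchyme, had 62.4 FPKM at day 6 and 5.47 FPKM at day 4. Tdo2, which opens the ring of tryptophan, had 8.71 FPKM at day 6 and was listed at 0 at day 4. All of them were also higher in control: Capn6 had 80.8 FPKM at control day 6 and 4.35 FPKM at control day 4, Pmp22 had 54.6 FPKM at control day 6 and 11.5 FPKM at control day 4, and Tdo2 had 10 FPKM at control day 6 and 0.0504 FPKM at control day 4.

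Several of the largest decreases outside the lists were in genes that control embryoid bodies expressed weakly at day 4. Nmu, the neuropeptide neuromedin U, had 3.48 FPKM at induced day 6 and 29.8 FPKM at day 4, and was listed at 0 at both control days. Scin, an actin severing protein, had 12.1 FPKM at induced day 6 and 61.7 FPKM at day 4, against 0.103 FPKM at control day 6 and 0.704 FPKM at control day 4. C1ql2, a secreted synaptic protein, had 4.52 FPKM at induced day 6 and 23.8 FPKM at day 4, against 0.391 FPKM at control day 6 and 0.0340 FPKM at control day 4. Each of these remained above its control level at day 6, and Nmu and Scin had their highest value at induced day 4.

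Crym, which binds thyroid hormone in the cytoplasm, had 10.1 FPKM at induced day 6 and 51.6 FPKM at day 4. Shisa3, an inhibitor of Wnt and FGF receptors, had 2.14 FPKM at induced day 6 and 14.8 FPKM at day 4, and 62.3 FPKM at induced day 2. Pcsk1, a prohormone convertase, had 1.08 FPKM at day 6 and 11.7 FPKM at day 4, and Ptgs2, cyclooxygenase 2, had 0.379 FPKM at day 6 and 5.0 FPKM at day 4. Egflam, a matrix protein of photoreceptor synapses, had 5.45 FPKM at day 6 and 24.5 FPKM at day 4. Pcsk1 was also lower in control, with 0.361 FPKM at control day 6 and 4.31 FPKM at control day 4. Crym had 3.07 FPKM at control day 6 and 7.05 FPKM at control day 4, just short of the call (difference -0.98). Shisa3, Ptgs2 and Egflam lay above their control day 4 levels at control day 6.

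The largest decreases of all are uncertain. Rangrf had 0.00504 FPKM at induced day 6 and 18.3 FPKM at day 4; the day 6 value is below that of 1 fragment in a transcript of 2 kb. Amd1 had 0.187 FPKM at day 6 and 10.7 FPKM at day 4 while a copy, Gm4535, had 14.3 FPKM at day 6 and 0.122 FPKM at day 4. The values of Amd1 and Gm4535 exchanged places and their sum stayed within 2-fold, so neither is read as a change.

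In control embryoid bodies, 775 of 12606 genes (6.15%) were higher at day 6 than at day 4 and 375 (2.97%) were lower, with a median difference of 0.09. The pairs of libraries share none. Of the genes higher after induction 202 were also higher in control, 52.7% of the induced and 26.1% of the control list. Of the genes lower after induction 101 were also lower in control, 37.4% of the induced and 26.9% of the control list. Across the 12191 genes expressed in both comparisons the differences had a Pearson correlation of 0.60 and a Spearman correlation of 0.58, given as a description over genes that are not independent. Counting any size of difference, 332 of the 383 higher genes lay above 0 in control, and 185 of the 270 lower genes lay below 0.

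The 8 genes with the largest difference between arms on the lower side were Hbb-y, Postn, Igfbp5, Hba-x, Tnnt2, Col1a2, Cited4 and Plagl1. Postn, a matrix protein of mesenchyme and valves, had 6.79 FPKM at induced day 6 and 5.36 FPKM at induced day 4, against 33 FPKM at control day 6 and 0.101 FPKM at control day 4. Igfbp5, which binds insulin-like growth factors, had 14.5 FPKM at induced day 6 and 2.43 FPKM at induced day 4, against 114 FPKM at control day 6 and 0.433 FPKM at control day 4. Plagl1, an imprinted zinc finger factor, had 24.6 FPKM at induced day 6 and 34.3 FPKM at induced day 4, against 20 FPKM at control day 6 and 1.4 FPKM at control day 4. Induced day 4 was thus above control day 4 for Postn, Igfbp5 and Plagl1, and for Postn and Igfbp5 control was the higher arm at day 6.

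On the other side were Pga5, Alox15, Spink3, Gbp1, Cfc1, Usp18, Gbp2 and Msgn1. Pga5, a pepsinogen, had 21.9 FPKM at induced day 6 and 2.35 FPKM at induced day 4, against 28.9 FPKM at control day 6 and 51.2 FPKM at control day 4. Cfc1 (Cryptic), a Nodal co-receptor of the left-right pathway, had 18.9 FPKM at induced day 6 and 5.05 FPKM at induced day 4, against 16.8 FPKM at control day 6 and 27.5 FPKM at control day 4. Both were high at control day 4 and reached similar levels in the arms at day 6. Gbp1 and Gbp2, interferon-induced GTPases that are similar in sequence, were at 1.43 and 2.41 FPKM at induced day 6 and 2.45 and 5.03 FPKM at induced day 4, against 1.09 and 1.82 FPKM at control day 6 and 16.2 and 22.9 FPKM at control day 4.

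Opposite calls in the arms were few. Without small RNA, predicted, pseudogene and clone symbols, 0 genes were higher after induction and lower in control, and 10 were lower after induction and higher in control: Aard, Bves, Cited4, Col1a2, Enpp1, Foxf2, Hs3st1, Kctd12, Rgs4 and Sox21. With those symbols the counts were 5 and 15. Over all genes, 2.98% were higher after induction and 2.97% lower in control, against 2.1% lower after induction and 6.15% higher in control. Whether the counts differ from what such shares would give was not tested. Hs3st1, Aard, Foxf2 and Enpp1 lay just past the line after induction, with differences of -1.009, -1.011, -1.012 and -1.020. Cited4, a transcriptional co-activator, had 11.6 FPKM at induced day 6 and 33.3 FPKM at induced day 4, against 4.01 FPKM at control day 6 and 0.0995 FPKM at control day 4. Rgs4, an inhibitor of G protein signals, had 2.56 FPKM at induced day 6 and 16.6 FPKM at induced day 4, against 2.61 FPKM at control day 6 and 0.490 FPKM at control day 4. Bves, a membrane protein of heart and muscle, had 6.35 FPKM at induced day 6 and 32.9 FPKM at induced day 4, against 3.78 FPKM at control day 6 and 0.863 FPKM at control day 4. In all 10 genes induced day 4 lay above control day 4. Picking genes by a fall in one arm and a rise in the other favours that order, so it only describes them. Of Aard, Enpp1 and Rgs4 induced day 6 lay below control day 6, and of the other 7 above it.

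**Figure D4:**
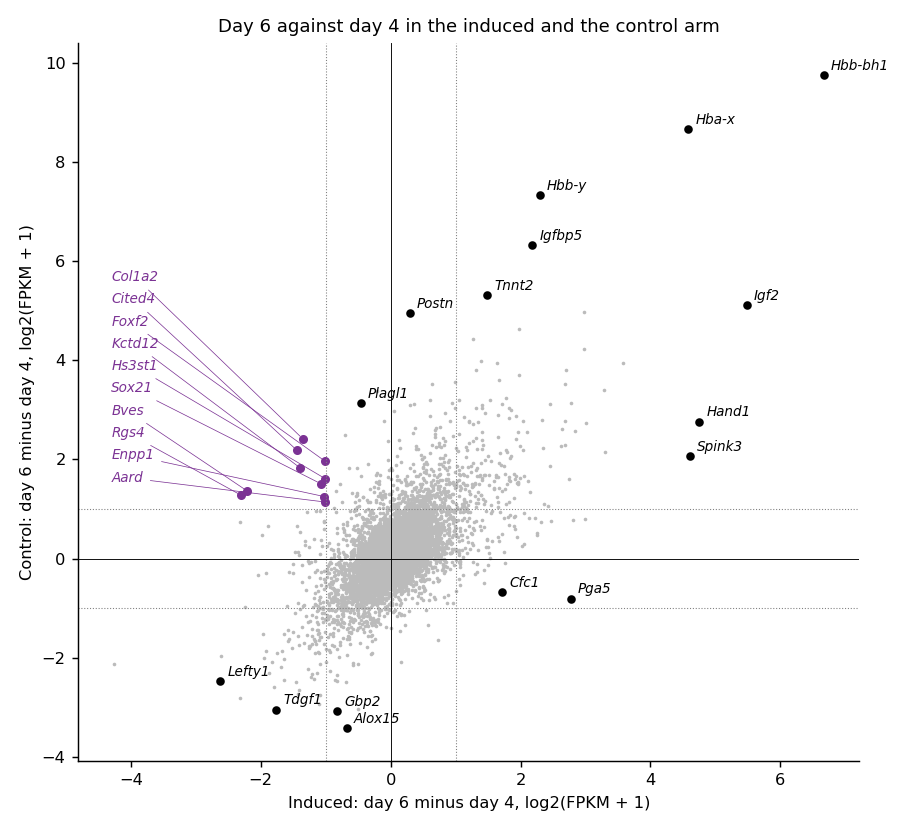
Day 6 minus day 4 in log2(FPKM + 1) for genes expressed in both comparisons, induced on the x axis and control on the y axis, 1 library per day and arm and without small RNA, predicted, pseudogene and clone symbols. The 10 purple genes are at least 2-fold lower after induction and at least 2-fold higher in control; dotted lines mark 2-fold.

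**Figure D5:**
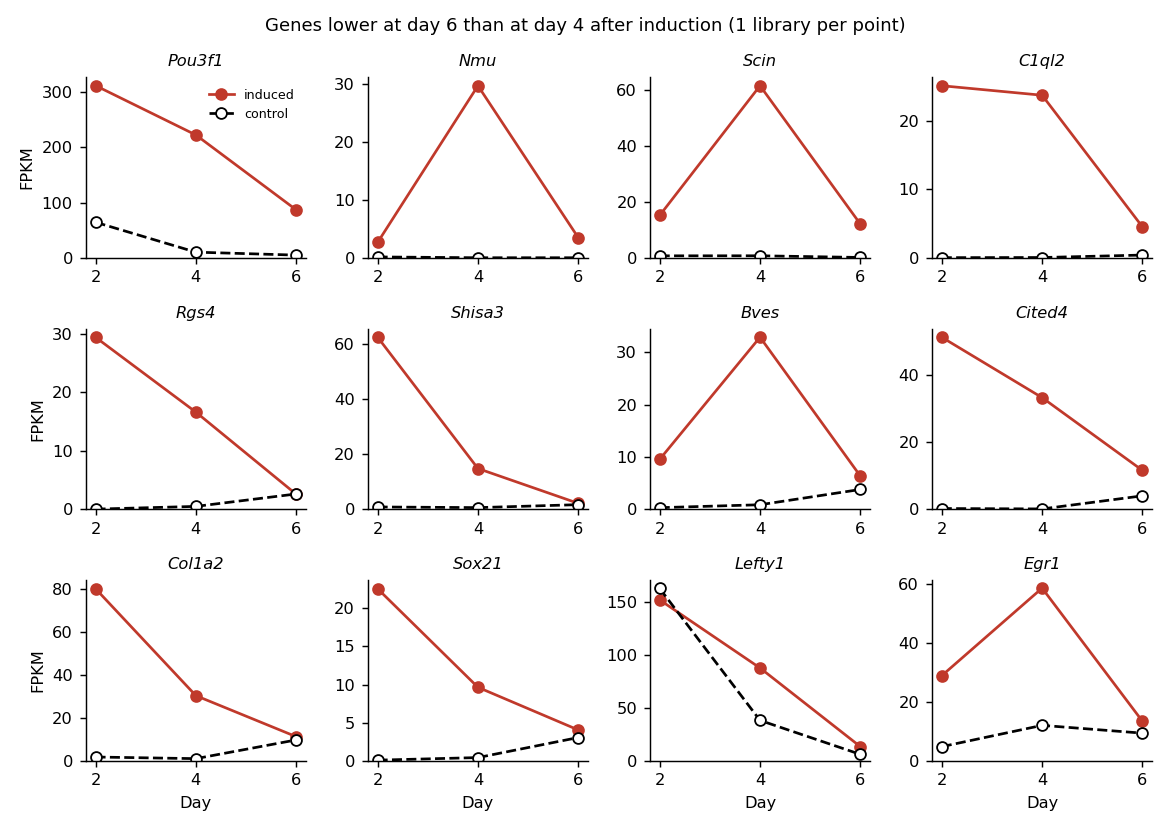
FPKM at days 2, 4 and 6 of 12 genes that were lower at induced day 6 than at induced day 4, with induced in red and control as open points, 1 library each. Pou3f1 is above control at all 3 days, the induced and control levels of Rgs4 meet at day 6 (2.56 and 2.61 FPKM), and Lefty1 falls in both arms.

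The day 2 library placed the lower genes further. Those 270 had a median of 8.56 FPKM at induced day 2, 9.26 FPKM at induced day 4 and 2.95 FPKM at induced day 6, and in control a median of 3.50 FPKM at day 4 and 2.14 FPKM at day 6. The 383 higher genes had a median of 0.837 FPKM at induced day 2, 1.23 FPKM at induced day 4 and 6.12 FPKM at induced day 6, and in control 1.82 FPKM at day 4 and 7.43 FPKM at day 6.

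Oct6 binding at day 4 was set beside these changes with the authors' list of 7979 peaks, each 133 bp wide. Within 10 kb of an annotated start site, a peak centre was found for 46 of 371 higher genes with a start site (12.4%, 95% Wilson interval 9.43 to 16.1%) and for 36 of 250 lower genes (14.4%, 10.6 to 19.3%). Over all expressed genes the share was 2340 of 12672 (18.5%, 17.8 to 19.2%). The interval of the lower genes includes the share of all expressed genes. With a threshold of 1.5 on the log2 scale, which left 76 lower genes, the share of lower genes was 18.8%, above 18.5%. Without small RNA, predicted and pseudogene symbols it was 11.7%, and at 5 FPKM or more in either library 17.1%. The share of higher genes was 10.5, 11.3 and 14.9% in the same order, below 18.5% each time. The share of all expressed genes, 18.5%, is that of the main setting and is not given for these alternatives. What expression level or symbol type contributed was not tested. Intervals cover counting error only. Pou3f1 itself had 4 peaks within 10 kb.

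The 4 higher genes of largest difference with a near peak were Pmp22, Tnni1, Nrp1 and Cd55, an inhibitor of complement, and the 4 lower ones were Nmu, Crym, Bves and Amd1, the last of which is not read as a change for the reason given above. The peak of Nrp1 was centred 268 bp after the annotated start (mm9, chr8:130883176-130883308) and that of Cd55 145 bp after it (chr1:132359111-132359243). Cd55 had 29.2 FPKM at induced day 6 and 5.32 FPKM at day 4. A peak of C1ql2 lay 153 bp after its start (chr1:122237247-122237379).

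The octamer ATGCAAAT, the classical POU element, was searched on both strands of the peaks. It was present in 334 of 7965 peaks on assembled chromosomes (4.19%), in 3 of the 45 highest scoring peaks beside higher genes (6.67%) and in 1 of the 34 beside lower genes (2.94%). Of these 4 peaks, those beside Plekha6 (mm9, chr1:135135771-135135903, centred at -6838 bp from the start, negative meaning before it), Rgl1 (chr1:154614662-154614794, -1246 bp) and Col1a2 (chr6:4457730-4457862, 2981 bp) are shown on the plus strand of mm9 with the octamer, or its reverse complement, in capitals.
Plekha6: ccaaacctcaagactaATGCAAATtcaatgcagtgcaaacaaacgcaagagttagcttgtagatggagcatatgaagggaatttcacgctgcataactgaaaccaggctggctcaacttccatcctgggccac
Rgl1: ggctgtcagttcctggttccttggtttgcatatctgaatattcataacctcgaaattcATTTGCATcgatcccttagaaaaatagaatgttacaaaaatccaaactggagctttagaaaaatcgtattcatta
Col1a2: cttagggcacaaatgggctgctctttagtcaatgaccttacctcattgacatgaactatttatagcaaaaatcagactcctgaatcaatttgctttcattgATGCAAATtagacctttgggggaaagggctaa
Plekha6 and Rgl1 were higher at day 6 and Col1a2 was lower. With so few peaks these shares say nothing about the called genes beyond what the share over all peaks gives. Plekha6, a pleckstrin homology protein, had 9.09 FPKM at day 6 and 3.31 FPKM at day 4, and Rgl1, a Ral exchange factor, had 7.09 FPKM at day 6 and 2.36 FPKM at day 4.

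Both strands of the 300 base promoter entries were searched. The octamer was found in 1.68% of higher, 3.83% of lower and 1.3% of all expressed entries, the share of lower genes resting on 8 promoters. TATAAA was found in 15.8% of higher, 12.9% of lower and 6.99% of all expressed entries. CCACCC was found in 40.9% of higher, 44% of lower and 37.6% of all expressed entries, and CCAAT in 37.6% of higher, 25.4% of lower and 38% of all expressed entries. GTCTAGAC and AATCCACA, letters bound by Smad proteins and by Foxh1, were found in 0.671 and 0.671% of higher, 0.478 and 0% of lower, and 0.28 and 0.497% of all expressed entries. The ratio of observed to expected CpG had a median of 0.56 in higher, 0.54 in lower and 0.76 in all expressed entries, so genes that moved in either direction had promoters with fewer CpG. Several entries can belong to 1 gene, and entries were found for 241 higher and 167 lower genes.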

How the data were processed

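The submitters' processing notes name HOMER, Cuffdiff, Cufflinks 1.3.0, TopHat 1.4.1 and the build mm9; which step each tool served, strandedness and the treatment of multi-mapping reads are not given in the sources used here. The authors deposited 1 table of FPKM by gene symbol and library, and a peak list with a score per peak, whose scale is not stated and which served only to pick the best peak or leave out the weaker ones. Reads were not analysed here, and a few genes and 1 peak sequence are not reported here.

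Differences were taken in log2(FPKM + 1) between libraries among genes with 1 FPKM or more in either, with a call at 1 on the log2 scale. The pseudocount of 1 understates the folds of weakly expressed genes. With 1 library a group there was no test. An exact 0 can be a failed estimate, so such genes are described as listed at 0. Depth was estimated from genes below 0.3 FPKM with 1 annotated transcript. Of the symbols 96.1% matched the GENCODE annotation of NCBIM37, the assembly of mm9, directly or by a RefSeq synonym; 7965 peaks ended within its chromosomes, and 14 on unplaced contigs were left out. The promoters of RefSeq are of GRCm38.p6 and were matched by symbol. The computation was tested on simulated data.

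Named genes were Pou3f1, the 15 largest differences in each direction, the 8 largest differences between arms in each direction, up to 5 genes a list and the 4 higher and 4 lower genes with a near peak; other genes named for contrast were chosen after their values were seen. The genes and the 41 lists (584 symbols, 1 of them not in the table) were chosen with earlier results of these data known. Alternatives were a pseudocount of 0.1, no filter, a filter of 5 FPKM, a threshold of 1.5, median ratio and quantile scaling, leaving out small RNA, predicted and pseudogene symbols, peaks within 50 kb and stronger peaks. Computation used matplotlib 3.10.9, scipy 1.17.1, pandas 2.3.3 and numpy 2.4.6 under Python 3.11.15.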

Additional observations from a re-analysis of the deposited data

Results flagged for a closer look

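The 10 genes below were at least 2-fold lower at day 6 than at day 4 after induction and at least 2-fold higher in control, with 1 library per day and arm, so the difference between the arms was not tested. On the log2(FPKM + 1) scale the induced minus the control difference was -3.78 for Col1a2, -3.63 for Cited4, -3.58 for Rgs4 and -3.56 for Bves. It was -3.22 for Kctd12, a potassium channel tetramerisation domain protein, and -2.98 for Foxf2, a forkhead factor of mesenchyme. It was -2.62 for Hs3st1, a heparan sulfate sulfotransferase, and -2.59 for Sox21, a repressor of the SoxB2 group. Enpp1, which makes pyrophosphate outside the cell, had -2.27 and Aard -2.15. After induction Hs3st1, Aard, Foxf2 and Enpp1 lay just past the 2-fold line.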

How the results depend on the processing

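No paired analysis was possible because each group holds 1 library, which also left nothing to leave out. With a pseudocount of 0.1 the counts were 631 higher and 517 lower, 330 and 203 of them in both arms, since weakly expressed genes then pass. At 5 FPKM 212 genes were higher, 115 in both arms. At a threshold of 1.5 there were 159 higher and 76 lower genes, 80 and 31 in both arms. A peak within 50 kb was found for 30.5% of higher and 35.6% of lower genes, against 39.7% of all expressed genes. A peak scoring above the median was found for 6.74% of higher and 8.0% of lower genes. The share of all expressed genes is not given for these stronger peaks, so the 2 values cannot be called low or high. The other alternatives left these counts within 1.5 times and the shares within their intervals. Of 215 named genes 20 crossed the 2-fold line with a pseudocount of 0.1, 3 under median ratio scaling and 9 under quantile scaling, and 0 changed sign. Of 41 list medians 14 moved by at least 0.1 with a pseudocount of 0.1, 0 under median ratio scaling and 6 under quantile scaling, and only that of the brain region list changed sign, under both scalings. Differences of genes under 1 FPKM at both days are not resolved, and nothing here measures the spread between cultures.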

Other observations

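The genes in this part were chosen after their values were seen and stand for no group. Rfx6, a factor of pancreatic and gut endocrine cells, had 3.18 FPKM at induced day 6 and 0.0935 FPKM at day 4, against 4.07 FPKM at control day 6 and 0.601 FPKM at control day 4. The hormone gene Pyy had 3.12 FPKM at induced day 6 and was listed at 0 at day 4, against 5.02 FPKM at control day 6 and 0.319 FPKM at control day 4. Sst, the somatostatin gene, had 6.06 FPKM at induced day 6 and 0.630 FPKM at day 4, against 0.365 FPKM at control day 6, and was listed at 0 at control day 4. Sct, the secretin gene, had 4.47 FPKM at induced day 6 and 1.4 FPKM at day 4, against 1.04 FPKM at control day 6 and 0.617 FPKM at control day 4.

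Dmrt1, a factor of the germ line and testis, had 2.63 FPKM at induced day 6 and 9.94 FPKM at day 4. Sohlh2, a bHLH factor of germ cells, had 0.949 FPKM at induced day 6 and 3.83 FPKM at day 4.

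Of 7 expressed posterior Hox genes (numbers 10 to 13) that were in no list, 4 were higher at day 6 and 0 were lower. Over all expressed genes 2.98% were higher. Among the 4, Hoxc10 had 2.63 FPKM at induced day 6 and 0.149 FPKM at day 4, and Hoxa10 had 2.58 FPKM at day 6 and 0.326 FPKM at day 4. Hoxc10 and Hoxa10 passed the filter through day 6 alone, so the count describes these genes and supports nothing further. By chromosome the share of expressed genes that were higher ran between 0.966% on chromosome 4 and 4.99% on the X chromosome.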
